A study of Homo sapiens with 48 samples.

Results

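The abundant long noncoding RNAs of a human embryonic kidney line were examined under angiotensin II (AII) and epidermal growth factor (EGF). Members were selected on mean level alone: genes listed as lncRNA on chromosomes 1 to 22, without the small nucleolar RNA host genes SNHG, GAS5, ZFAS1 and DANCR, with a mean of at least 10 CPM (a gene's share of its library's counts, scaled to a fixed total) over the libraries used. Of 60610 genes in the table, 16469 met the rule apart from the level, and 194 reached it. Their high level is therefore no finding. Changes between groups were not part of the rule, but its mean spans all groups. A gene near the limit can thus enter through the groups where it is higher. The members were also chosen with earlier results of these data known.

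The cells were HEK293, and all of them came from 1 clone (B6) that carries a stably transfected AT1R, the receptor for AII (gene AGTR1), so that the results describe this clone. The clone was kept without serum and received no addition (control), 1 nM AII, 10 µg/L EGF, or AII + EGF, for 6 h or 24 h, with 6 libraries of poly(A) RNA labelled for each of the 8 groups. The design asks what each stimulus does on its own and what both do together, early and late. Nothing in the labels says that the libraries came from separate cultures, so p-values measure the spread between these libraries, which may be technical.

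Of the 48 libraries, 38 were used: 4 control, 5 AII, 3 EGF and 4 AII + EGF libraries at 6 h, and 6, 5, 5 and 6 at 24 h. Among 1128 pairs of libraries, 4 pairs differed by less than the sampling noise (chi-square per degree of freedom at most 0.505, against at least 2.02 in every other pair). The labels put 3 of these pairs in different groups or times, the other pair was EGF 6 h replicates 2 and 6, and all 8 libraries were left out. Of the other libraries, AII 6 h replicate 6 lay at 0.85 and AII + EGF 6 h replicate 6 at -0.01 on a scale from 0 (AII) to 1 (AII + EGF) over 1393 genes, against their labels, and both were left out as well. Totals of the used libraries ran from 17.8 to 29.96 M counts, AGTR1 was at 3913 to 15975 CPM in all of them, and the members took 0.557 to 0.906% of the counts. Counts of calls are given below also with all 48 libraries as labelled.

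Long noncoding RNAs are transcripts without a conserved reading frame. Some stay in the nucleus, where they scaffold bodies such as paraspeckles and speckles or act on the chromatin around their own gene, and others work in the cytoplasm by holding proteins or microRNAs. Many start head to head with a protein-coding gene or run antisense to it, and a few are precursors from which microRNAs are cut. AT1R is a G protein-coupled receptor and EGFR a receptor tyrosine kinase. Both feed into kinase cascades that switch on immediate early transcription factors, among them AP-1, the EGR family and serum response factor.

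Most of what follows rests on 3 groups of members, whose sequences are shown first, taken from RefSeq on GRCh38.p14. The first group is the microRNA precursors. The mature microRNAs within MIR34AHG, DLEU2, MIR4435-2HG and MIR99AHG are given with the seed (bases 2 to 8) in capitals. Poly(A) libraries do not measure mature microRNAs, so only the host transcripts have values here.
miR-34a-5p (MIR34AHG): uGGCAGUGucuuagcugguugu
miR-15a-5p (DLEU2): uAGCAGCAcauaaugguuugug
miR-16-5p (DLEU2): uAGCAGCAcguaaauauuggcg
miR-4435 (MIR4435-2HG): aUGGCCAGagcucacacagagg
miR-99a-5p (MIR99AHG): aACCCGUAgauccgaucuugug
let-7c-5p (MIR99AHG): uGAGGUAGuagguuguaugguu
miR-125b-5p (MIR99AHG): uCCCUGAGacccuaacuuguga
The miR-34a-5p sequence lies at chr1:9151735-9151756 on the minus strand, and miR-4435 at chr2:111321061-111321082 on the minus strand. miR-15a-5p and miR-16-5p, both within DLEU2 on chromosome 13, share the seed AGCAGCA, and the other 5 each have a seed of their own.

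The second group is a pair of paralogs on chromosome 2, MIR4435-2HG and CYTOR. Their promoter windows (250 bases before the start to 50 after it) are given because a stretch of 241 bases is identical between them, with 0 differing bases. Capitals mark the AP-1 motif TGANTCA, which was searched on both strands.
MIR4435-2HG, chr2:111495112-111495411, minus strand: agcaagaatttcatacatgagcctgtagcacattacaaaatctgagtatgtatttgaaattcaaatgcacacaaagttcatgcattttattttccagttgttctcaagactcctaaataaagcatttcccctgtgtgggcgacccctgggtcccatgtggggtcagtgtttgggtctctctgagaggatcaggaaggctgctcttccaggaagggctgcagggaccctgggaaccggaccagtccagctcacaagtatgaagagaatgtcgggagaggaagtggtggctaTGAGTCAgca
CYTOR, chr2:87455177-87455476, plus strand: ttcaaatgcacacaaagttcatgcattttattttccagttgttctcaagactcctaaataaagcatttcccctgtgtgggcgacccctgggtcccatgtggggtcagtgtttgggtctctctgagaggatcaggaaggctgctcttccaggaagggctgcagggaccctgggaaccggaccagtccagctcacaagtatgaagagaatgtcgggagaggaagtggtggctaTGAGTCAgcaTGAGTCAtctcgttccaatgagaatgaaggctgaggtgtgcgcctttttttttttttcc
The MIR4435-2HG window held 1 match and the CYTOR window 2, of which the first falls within the shared stretch. The second lies past the point where the MIR4435-2HG window ends. The counts therefore show no difference in sites between the paralogs. Because these genes are near copies of each other at their starts, the authors' counting could split or exchange reads between them, and their separate values are uncertain to that extent.

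The third group is a head-to-head pair on chromosome 1. MIR34AHG starts at base 9182338 on the minus strand and LNCTAM34A, a transcript described as a partner of the miR-34a locus, at base 9182204 on the plus strand, so that their first 135 bases lie over each other and reads from them cannot be told apart without strand. In their windows, capitals mark matches to the EGR motif GCGNGGGCG and the GC box GGGCGG, searched on both strands.
MIR34AHG, chr1:9182289-9182588, minus strand: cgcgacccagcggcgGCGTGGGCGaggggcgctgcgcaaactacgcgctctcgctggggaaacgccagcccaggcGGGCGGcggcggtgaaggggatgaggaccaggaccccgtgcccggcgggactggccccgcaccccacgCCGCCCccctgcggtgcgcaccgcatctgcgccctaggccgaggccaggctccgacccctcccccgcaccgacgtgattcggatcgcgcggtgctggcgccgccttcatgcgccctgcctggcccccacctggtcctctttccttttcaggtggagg
LNCTAM34A, chr1:9181954-9182253, plus strand: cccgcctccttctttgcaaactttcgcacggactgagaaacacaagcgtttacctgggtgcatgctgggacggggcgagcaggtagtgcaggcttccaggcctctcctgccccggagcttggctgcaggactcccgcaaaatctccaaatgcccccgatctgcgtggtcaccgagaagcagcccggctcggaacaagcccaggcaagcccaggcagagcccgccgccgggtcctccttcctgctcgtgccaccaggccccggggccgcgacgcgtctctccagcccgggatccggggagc
The MIR34AHG window held both motifs. The LNCTAM34A window held no match to either, which says only that these letters are not in this window.

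By name, 69 members are known only by a clone number, 51 are antisense transcripts, 31 are LINC genes, 8 are divergent transcripts, 6 are microRNA hosts, 2 are intronic or overlapping, and 27 have other names. In position, 98 overlapped a protein-coding gene and 66 had a protein-coding start within 1000 bases on the other strand. The counting is not stated to use strand, so reads of such members and of their neighbours cannot be told apart. Another 12 clone-named members on chromosome 21 (FP and CU clones), among them the member with the highest mean, FP236383.5 at 1220 CPM, had no entry in the annotation used here and are uncertain.

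The level of the members was mostly modest: the median mean was 18.5 CPM, 104 lay between 10 and 20 CPM, and 9 reached 100 CPM. Per kilobase of exon, NORAD led the 178 members with a known exon length, with 77 CPM per kb (416 CPM). FP236383.5, without an entry in the annotation, could not be ranked. NORAD holds Pumilio proteins in the cytoplasm and guards chromosome stability. FGD5-AS1 followed at rank 4 (20.2 CPM per kb) and TUG1 at rank 5 (16.2 CPM per kb), whereas NEAT1, the scaffold of paraspeckles, was at 7.39 CPM per kb and MALAT1, of nuclear speckles, at 8.78 CPM per kb. Members just inside the limit were AC239868.1 (10.3 CPM), AC097448.1 (10.2 CPM) and Z97989.1 (10.1 CPM), and just outside it were KCNQ1OT1 (9.93 CPM), AF131215.5 (9.86 CPM) and AL137003.1 (9.86 CPM).

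Combined stimulation for 6 h moved more members than any other condition, and most of them downwards. A call needed an adjusted p under 0.01 (edgeR's quasi-likelihood test over 19626 genes, Benjamini-Hochberg), a 1.5-fold change or more, and over 5 CPM on average in the higher group. Under AII + EGF at 6 h, 10 members rose and 30 fell, where 6.45% of all tested genes rose and 5.53% fell. That is 5.15% of the members rising and 15.5% falling. Of 9398 protein-coding genes at 10 CPM or more, 9.66% rose and 8.49% fell. The median log2 change of the members was -0.18, beside -0.03 for all tested genes and 0.03 for those protein-coding genes, and 130 of the 194 members lay below 0. The 20 tested small nucleolar RNA host genes, which the rule had left out, had the same median of -0.18, with 3 falls (15%) and no rise. In all 10 rises each stimulated library was above each control, and in all 30 falls below. With all 48 libraries, 26 fell and 4 rose (MIR4435-2HG, GASAL1, CYTOR and BTG3-AS1), and with library totals in place of TMM factors 4 rose and 31 fell. Library totals also turned the split over all tested genes, from 1266 rises and 1085 falls to 922 and 1442.

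**Figure D1:**
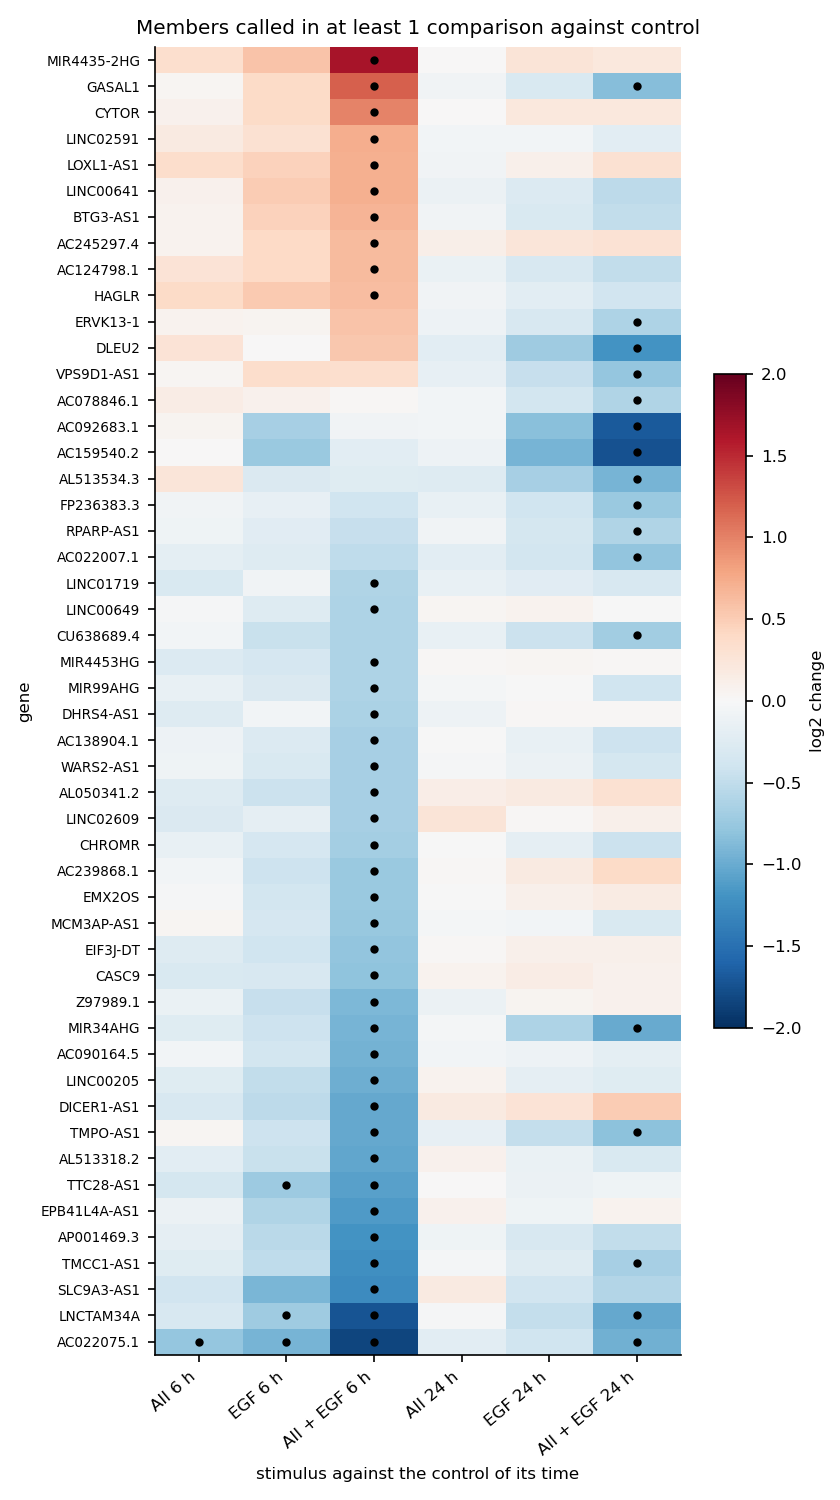
Log2 change (colour) of 50 members called in at least 1 of 6 comparisons against the control of the same time (columns), ordered by their change under AII + EGF at 6 h, with a black dot where the member was called. Most dots stand in the AII + EGF columns, 39 at 6 h and 17 at 24 h, and those at 24 h are all falls.

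The largest rise was that of MIR4435-2HG, the host of miR-4435, which in mice is known as Morrbid, a regulator of myeloid cell survival. It lay at 18.2, 20.5, 19.9 and 24.5 CPM in the control libraries and at 68.1, 64.6, 65.1 and 64.0 CPM under AII + EGF. The stimulated libraries thus sat close together and far above the controls, 3.15-fold higher by log2 1.65 ± 0.10 (SE; adjusted p = 5.3e-16, edgeR). AII alone gave 24.4 to 29.3 CPM and EGF alone 30.4 to 32 CPM, where the lowest AII library met the highest control and the EGF libraries lay between control and the combination. Neither stimulus alone was called in the main fit. EGF reached log2 0.57 ± 0.10 (adjusted p = 0.00021), under the fold minimum, and AII 0.34 ± 0.09 (adjusted p = 0.041). With blocks of consecutive sample titles in the fit, MIR4435-2HG was at 1.76 under AII + EGF and at 1.10 against EGF. EGF alone then raised 2 members, which are counted below but not named, and MIR4435-2HG may be among them.

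CYTOR, its paralog, which is linked to the cytoskeleton and often raised in tumours, was at 25.1, 19.6, 24.3 and 25.8 CPM in control and at 45.7, 46.8, 47.1 and 50.03 CPM under AII + EGF. Again no stimulated library overlapped a control, with a log2 change of 1.00 ± 0.11 (adjusted p = 2.9e-09). EGF alone lay between (29.7 to 32.2 CPM), and its change of 0.39 ± 0.12 was not called (adjusted p = 0.039). MIR4435-2HG overlaps BCL2L11, a death-promoting BCL2 relative, on the other strand. BCL2L11 had a log2 change of -0.46 ± 0.10 (adjusted p = 0.00035) and was not called only because of the fold minimum.

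GASAL1, named for its association with growth arrest, was at 11.4, 8.11, 11.1 and 7.01 CPM in control and at 19.96, 21.7, 19.96 and 24.1 CPM under AII + EGF. Its log2 change was 1.19 ± 0.13 (adjusted p = 3.2e-09). The other 7 rises lay between 0.62 and 0.73 on the log2 scale, just past the fold minimum: LINC02591, LOXL1-AS1, LINC00641, BTG3-AS1, AC245297.4, AC124798.1 and HAGLR, the last 5 named after their values were seen. LOXL1-AS1 (0.71 ± 0.21, adjusted p = 0.0088), antisense to an elastic fibre enzyme, was no longer called when any 1 of the 8 libraries compared was left out, at 0.66 to 0.75. LINC02591 (0.73 ± 0.16) was at 0.36 (adjusted p = 0.087) with all 48 libraries. BTG3-AS1 lost its call without control replicate 4 (0.61, adjusted p = 0.011), AC124798.1 without control replicate 6 (0.53), and HAGLR without control replicate 6 (0.55) or AII + EGF replicate 5 (0.58). With the title runs (blocks of consecutive sample titles) as a block in the fit, 7 members rose and 38 fell, and LINC02591 (0.57), LINC00641 (0.56), AC124798.1 (0.51) and HAGLR (0.58) were under the fold minimum.

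The deepest fall was that of AC022075.1, whose current name is KLRK1-AS1 because it overlaps KLRK1, the gene of a natural killer cell receptor. KLRK1 lies on the other strand and had a log2 change of -2.18 ± 0.62 (adjusted p = 0.0053), from a mean of 0.78 to 0.169 CPM, below the level needed for a call. Reads of the overlap cannot be told apart without strand. AC022075.1 was at 19.6, 19, 19.9 and 19.3 CPM in the controls, a spread of under 1 CPM, and at 7.27, 4.87, 5.08 and 4.49 CPM under AII + EGF. This was 3.58-fold lower, with a log2 change of -1.84 ± 0.15 (adjusted p = 1.7e-12). It was also the single member that AII alone changed at 6 h, and it fell under EGF alone, as given below.

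LNCTAM34A followed, at 14.8, 13.8, 18.7 and 12.7 CPM in control and 4.49, 4.18, 4.60 and 4.91 CPM under AII + EGF. Its log2 change was -1.72 ± 0.13 (adjusted p = 1.1e-13). MIR34AHG, the precursor of miR-34a and a target of p53 that restrains the cell cycle, fell less, by 0.92 ± 0.21 on the log2 scale (adjusted p = 0.00054). Its libraries were at 50.1, 55.2, 63.2 and 80.9 CPM in control and at 37.8, 37.2, 31 and 25.6 CPM under AII + EGF, without overlap.

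EPB41L4A-AS1, which carries a small nucleolar RNA in an intron, was at 58.3, 41.8, 45.2 and 41.1 CPM in control and at 21.5, 21.2, 19.2 and 23 CPM under AII + EGF, a log2 change of -1.13 ± 0.15 (adjusted p = 2.1e-07). TTC28-AS1 went from 21.2, 19.1, 25.2 and 23.1 CPM to 10.3, 10.8, 10.8 and 9.66 CPM (-1.09 ± 0.10, adjusted p = 2.4e-11). In both genes the stimulated libraries lay within a few CPM of each other and well under every control. TMCC1-AS1 (-1.23 ± 0.17) and the clone-named AP001469.3 (-1.20 ± 0.17) fell by a similar amount.

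SLC9A3-AS1, antisense to a sodium-proton exchanger of the kidney, was less secure. Its control libraries were at 18.7, 20.3, 18.2 and 42.2 CPM and its AII + EGF libraries at 11.9, 13.2, 8.35 and 8.39 CPM. Replicate 6 of the control thus stood apart. The log2 change of -1.25 ± 0.38 (adjusted p = 0.0092) became -0.87 (adjusted p = 0.088) without that library, and the call was also lost without control replicate 4 or without any 1 of the 4 AII + EGF replicates, at -1.16 to -1.39.

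**Figure D2:**
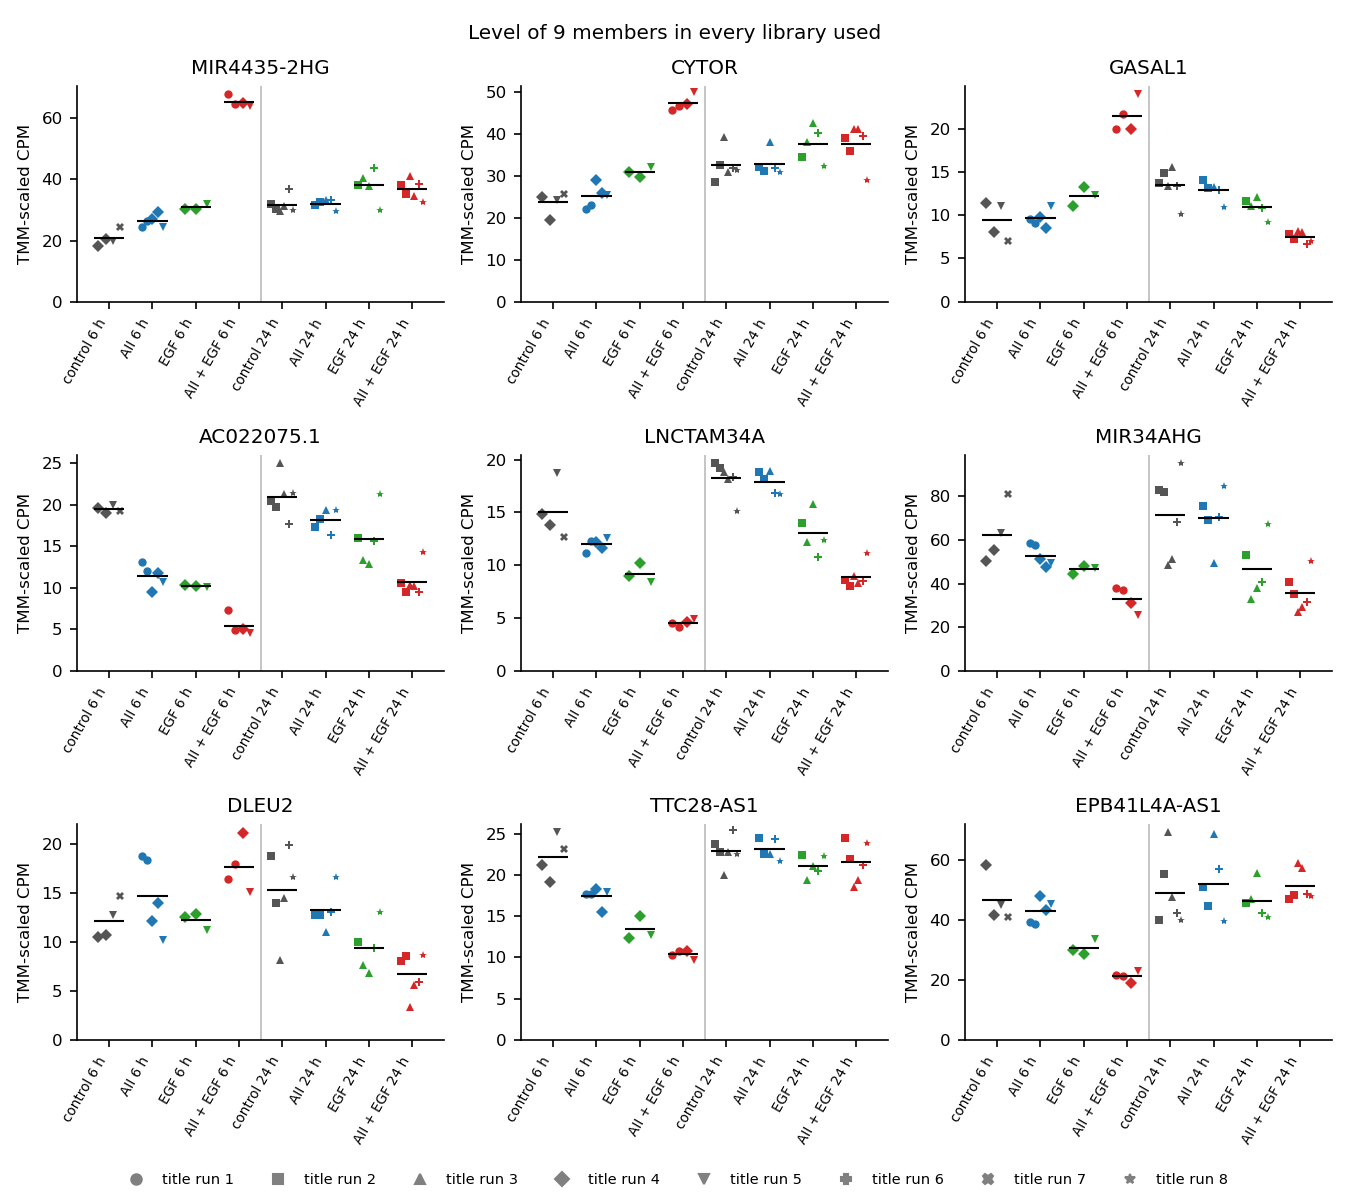
TMM-scaled CPM (y axis, from 0) of 9 members in every library used (points) by group (x axis), with the group mean as a line and the marker giving the block of consecutive title numbers (title run). The AII + EGF 6 h points of MIR4435-2HG, CYTOR and GASAL1 stand above every other 6 h library, and those of AC022075.1 and LNCTAM34A below.

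The remaining falls at 6 h ranged from -0.60 to -1.03 on the log2 scale. Among them were TMPO-AS1 (-1.03 ± 0.14), named after a gene of the nuclear lamina, and DICER1-AS1 (-1.02 ± 0.19), named after the enzyme that cuts microRNA precursors. Both were named after their values were seen. By class, 10 of the 51 antisense members fell and 2 rose, against 8 falls and 2 rises among the 69 clone-named, 4 and 2 among the 31 LINC, and 3 and 1 among the 6 microRNA hosts. Of the 66 members with a protein-coding start close by on the other strand, 14 fell and 1 rose. The difference between classes was not tested.

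In 2 title runs (4 and 5) the AII + EGF and control libraries of 6 h stood side by side. In both, all 10 rises were higher and all 30 falls lower in the stimulated libraries. The full separation of the groups given above already fixes this, so it adds no support. Title runs 1 and 7 held no such pair in the libraries used. What a title run stands for is not stated in the sources used here.

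In the main fit, AII alone at 6 h changed 1 member, and EGF alone 3, all downwards. Background shares of all tested genes were 0.459% rising and 0.0102% falling under AII, and 1.62% rising and 0.321% falling under EGF. With all 48 libraries the numbers were 1 fall under AII and 6 falls under EGF. With the title runs as a block EGF gave 2 rises and 5 falls, and without title runs 7 and 8, 2 rises and 4 falls. AC022075.1 was at 13.1, 12, 9.47, 11.8 and 10.7 CPM under AII, below each of the controls given above, with a log2 change of -0.77 ± 0.13 (adjusted p = 0.00037). Under EGF it was at 10.3, 10.2 and 10.0 CPM (-0.93 ± 0.15, adjusted p = 5.9e-05). A second AII call, a rise, appeared when control replicate 3 was left out.

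The other falls under EGF were TTC28-AS1, at 12.4, 15.1 and 12.7 CPM (-0.73 ± 0.11, adjusted p = 6.6e-06), and LNCTAM34A, at 9.0, 10.2 and 8.44 CPM (-0.70 ± 0.13, adjusted p = 0.00025). In both genes the 3 EGF libraries lay between the control and the AII + EGF libraries. LNCTAM34A was at -0.58 without control replicate 5, under the fold minimum. The EGF 6 h comparison rests on 3 libraries, since the others were among the near-identical pairs.

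Set against EGF at 6 h, the combination raised 3 members and lowered 5, with background shares of 1.62% and 1.31%. MIR4435-2HG was higher under AII + EGF by log2 1.08 ± 0.11 (adjusted p = 3.7e-09), GASAL1 by 0.81 ± 0.14 (adjusted p = 0.00011) and CYTOR by 0.61 ± 0.12 (adjusted p = 0.00043). LNCTAM34A was lower (-1.02 ± 0.13, adjusted p = 1.1e-06), as was AC022075.1 (-0.91 ± 0.16, adjusted p = 0.00011), and smaller differences were found for TMCC1-AS1 (-0.72), TMPO-AS1 (-0.61) and AL513318.2 (-0.59), the last named after its value was seen. For these 8 members no library of one group overlapped the other. Without EGF replicate 4 the 8 calls became 4, with CYTOR at 0.58. The call was lost for TMCC1-AS1 without EGF replicate 3 or 4 or AII + EGF replicate 2, 3 or 5 (-0.65 to -0.73), for TMPO-AS1 without EGF replicate 4 or 5 or AII + EGF replicate 1 or 2 (-0.51 to -0.61), and for AL513318.2 without EGF replicate 4 or 5 or AII + EGF replicate 1 or 3 (-0.54 to -0.60). With all 48 libraries 1 call was left, MIR4435-2HG at 0.74 (adjusted p = 0.005).

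After 24 h under AII + EGF, 17 members fell and none rose, while 1.7% of all tested genes rose and 1.2% fell. As a share, 8.76% of the members fell, beside 1.2% of the protein-coding genes at 10 CPM or more. The members' median log2 change was -0.19 (all tested genes: -0.02), and 135 of 194 lay below 0. With all 48 libraries 18 fell and none rose, and DESeq2 gave 17 falls. With only the groups compared in the fit, 9 fell. Leaving out 1 library gave 12 (without AII + EGF replicate 3) to 25 calls (without control replicate 3 or AII + EGF replicate 6), and the title runs as a block 24.

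Both transcripts of the miR-34a locus were among the falls. LNCTAM34A was at 15.1 to 19.7 CPM in control (median 18.6, n = 6) and at 8.04 to 11.2 CPM under AII + EGF (median 8.53, n = 6), without overlap, with a log2 change of -1.03 ± 0.10 (adjusted p = 1.3e-09). MIR34AHG was at 48.7 to 95.5 CPM in control (median 75.1) and at 27.1 to 50.2 CPM under AII + EGF (median 33.3), where the lowest control and the highest stimulated library crossed. Its log2 change was -1.0 ± 0.17 (adjusted p = 4.3e-05).

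DLEU2, the precursor of miR-15a and miR-16-1 from a region often lost in lymphocytic leukaemia, was at 8.20 to 19.9 CPM in control (median 15.6) and at 3.38 to 8.69 CPM under AII + EGF (median 7.02). The groups met only at their edges. Its log2 change was -1.19 ± 0.19 (adjusted p = 2.5e-05). TRIM13, a ubiquitin ligase gene that DLEU2 overlaps, was at 0.00 ± 0.08 on the same scale.

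AC022075.1 stayed low, at 9.51 to 14.4 CPM against 17.8 to 25 CPM in control (-0.96 ± 0.12, adjusted p = 1.9e-07). GASAL1, which had risen at 6 h, was at 6.70 to 8.17 CPM (median 7.49) against 10.1 to 15.6 CPM (median 13.5) in control, so that every stimulated library was below every control. Its log2 change at 24 h was -0.85 ± 0.11 (adjusted p = 5.9e-07). TMPO-AS1 (-0.81 ± 0.11) and TMCC1-AS1 (-0.66 ± 0.13) also fell, and the other 8 falls, left unnamed, ranged from -0.60 to -0.93. In 7 of the 17 no stimulated library reached a control, and in 10 the groups overlapped. Within title runs 2, 3 and 6 all 17 were lower in the stimulated libraries, and in run 8, 16 were. For the 7 without overlap the separation of the groups fixes this direction.

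The largest 24 h changes by size belonged to the clone-named AC159540.2 (-1.74 ± 0.41, adjusted p = 0.0021) and AC092683.1 (-1.67 ± 0.41, adjusted p = 0.0031), both on chromosome 2. They were also the most variable: AC159540.2 ran from 27.8 to 115 CPM in control and from 6.28 to 33.3 CPM under AII + EGF, and AC092683.1 from 24.2 to 131 and from 6.81 to 36.8 CPM, with overlap in each. Among replicates their SD on the log2 scale was 0.75 and 0.76, and within title runs 0.24 and 0.36. AC092683.1 lost its call without control replicate 1 (-1.46, adjusted p = 0.012) and without AII + EGF replicate 3 (-1.48) or 4 (-1.56). With only the groups compared in the fit, both genes lost their call. With the title runs as a block the adjusted p of AC159540.2 was 2.2e-11 and that of AC092683.1 4.6e-09.

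AII alone at 24 h changed no member, with a background of 0% rising and 0% falling, and 1 member at an unadjusted p under 0.05. DESeq2 gave no call either, nor did all 48 libraries. EGF alone at 24 h also gave 0 calls by edgeR, by DESeq2 and with all 48 libraries (background 0.163% rising, 0.0815% falling), although 49 members had an unadjusted p under 0.05 and 128 lay below 0. LNCTAM34A came closest under EGF, at 10.8 to 15.8 CPM with a log2 change of -0.48 ± 0.10 (adjusted p = 0.0051), under the fold minimum. Between AII + EGF and EGF at 24 h no member was called (background 0.0815% and 0.0102%), with 32 at an unadjusted p under 0.05 and 0 calls by DESeq2 or with all 48 libraries. Without AII + EGF replicate 6, 2 were called there, and without EGF replicate 5, 1. For EGF against control, 1 was called without EGF replicate 6.

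These 24 h counts changed with the title runs as a block, where runs 2, 3, 6 and 8 each held all 4 treatments. EGF alone then gave 4 falls: MIR34AHG (-0.59 ± 0.07, adjusted p = 6.9e-07), DLEU2 (-0.69 ± 0.14, adjusted p = 0.0013), AC159540.2 (-0.77) and AL513534.3 (-0.61). The combination against EGF gave 5: AC092683.1 (-1.01), AC159540.2 (-0.99), LINC00342 (-0.86), AC083843.3 (-0.66) and MIR17HG (-0.59). AL513534.3, LINC00342 and AC083843.3 were named after their values were seen. For AII at 24 h the block gave 0 calls.

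**Figure D3:**
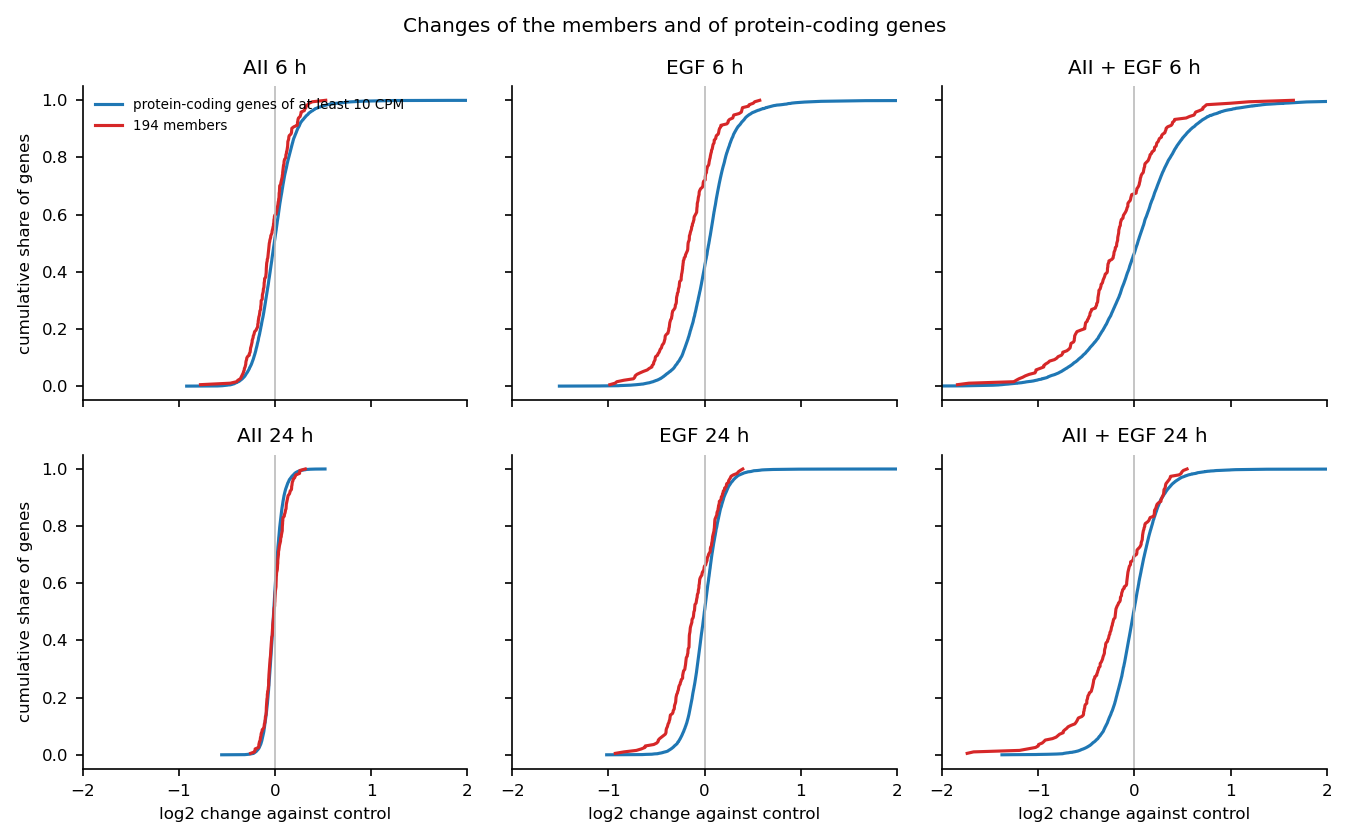
Cumulative share of genes (y axis) by log2 change against the control of the same time (x axis), for the 194 members and for 9398 protein-coding genes of at least 10 CPM, in 6 comparisons. The curve of the members lies to the left of the other under EGF and AII + EGF at both times, with medians of -0.17, -0.11, -0.18 and -0.19 at EGF 6 h, EGF 24 h, AII + EGF 6 h and AII + EGF 24 h.

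The response to AII + EGF differed between the times in 38 members, tested as the change at 24 h minus the change at 6 h: 21 were higher and 17 lower at 24 h, with background shares of 5.5% and 6.08%. With all 48 libraries 17 were higher and 13 lower. Against control, 6 members were called at both times. AC022075.1, LNCTAM34A, MIR34AHG, TMPO-AS1 and TMCC1-AS1 were down both times, and GASAL1 was first up and then down. TMCC1-AS1 was at -0.57 at 24 h without AII + EGF replicate 3, under the fold minimum. GASAL1 had the largest difference, -2.04 ± 0.17 (adjusted p = 2.1e-11).

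DLEU2 came next (-1.73 ± 0.30, adjusted p = 3.4e-05). At 6 h it was at 10.5, 10.7, 12.7 and 14.7 CPM in control and at 16.5, 17.9, 21.2 and 15.1 CPM under AII + EGF, a log2 change of 0.54 ± 0.23 that was not called (adjusted p = 0.071). MIR4435-2HG and CYTOR were no longer called against control at 24 h, at 0.21 ± 0.08 (adjusted p = 0.054) and 0.21 ± 0.09 (adjusted p = 0.091), and their differences between the times were -1.45 ± 0.12 and -0.79 ± 0.14. Control levels of MIR4435-2HG had by then moved from a mean of 20.8 to 31.8 CPM.

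In the other direction, DICER1-AS1 fell at 6 h, and at 24 h its libraries were at 15.2 to 21.5 CPM against 8.53 to 17.5 CPM in control (0.51 ± 0.14, adjusted p = 0.0066, under the fold minimum). The difference was 1.53 ± 0.23 (adjusted p = 3.1e-06). EPB41L4A-AS1 and TTC28-AS1 stood at 0.07 ± 0.12 and -0.08 ± 0.08 at 24 h, so that their differences came to 1.20 and 1.01. AC022075.1 (0.88 ± 0.19) and LNCTAM34A (0.69 ± 0.16) were lower than control at both times, less so at 24 h. MIR34AHG showed no such difference (-0.08 ± 0.27, adjusted p = 0.87).

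**Figure D4:**
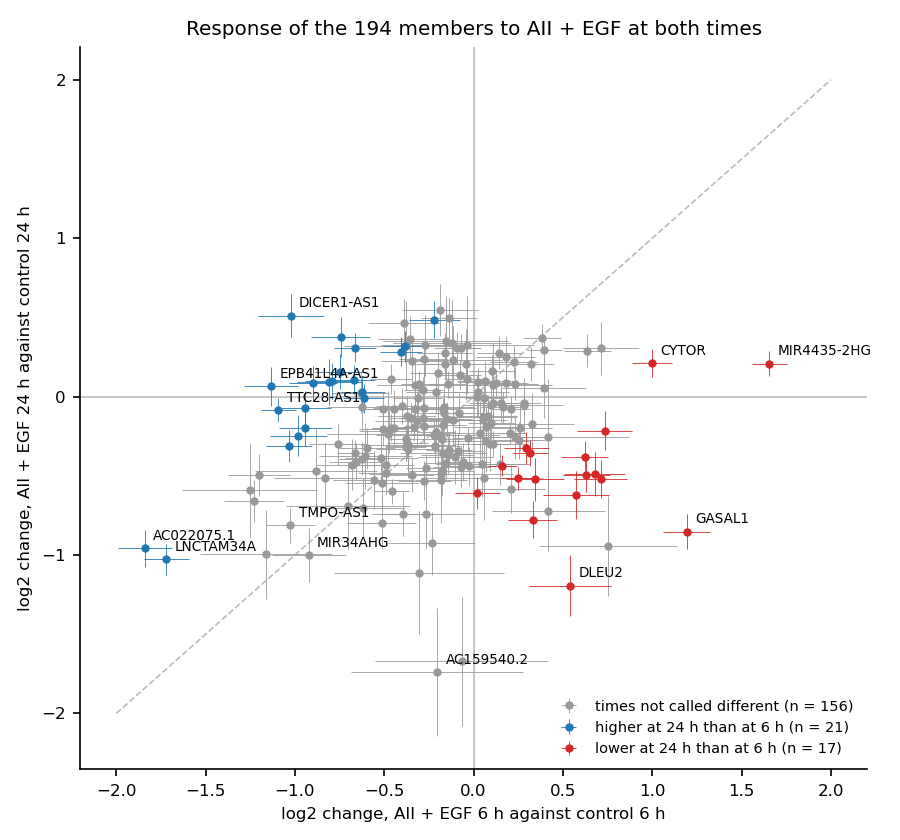
Log2 change of each of the 194 members under AII + EGF at 6 h (x axis) and at 24 h (y axis), each against the control of its time, with SE bars and a dashed line of equal change. Red and blue points (17 and 21) differ between the times. MIR4435-2HG, CYTOR and GASAL1 lie to the right, GASAL1 below 0 at 24 h, and LNCTAM34A and AC022075.1 lie low at both times.

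Control cells themselves differed between the times. In control at 24 h, 25 members were higher and 2 lower than in control at 6 h, with background shares of 4.77% and 1.96%, and the members' median was 0.21. With all 48 libraries 7 were higher and 1 lower. The times come from different title runs, so time and run cannot be told apart in this comparison. NEAT1 was at 62.7 to 155 CPM at 6 h and at 98.3 to 387 CPM at 24 h, with overlap and a log2 difference of 1.46 ± 0.37 (adjusted p = 0.0023). LINC01694 (1.48 ± 0.21) had the largest difference, and LOXL1-AS1 (1.04 ± 0.20) rose beside LOXL1 (1.02). LINC01694 was named after its values were seen.

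The members of highest level were not called under any stimulus without the title runs in the fit, and NEAT1 was called with them. NORAD was at 0.14 ± 0.13 and 0.28 ± 0.10 under AII + EGF at 6 h and 24 h (adjusted p = 0.42 and 0.051). TUG1, a regulator of chromatin and mitochondria, was at 0.05 ± 0.13 and -0.15 ± 0.11, and OIP5-AS1, which binds a microRNA and an RNA-stabilising protein, at 0.06 ± 0.11 and -0.01 ± 0.09. NEAT1 was at 0.75 ± 0.39 and -0.94 ± 0.31 (adjusted p = 0.14 and 0.031) and MALAT1 at -0.38 ± 0.34 and 0.32 ± 0.28. For NEAT1 the SD on the log2 scale was 0.58 within groups and 0.16 within groups and title runs. In both runs that held the pair at 6 h it was higher under AII + EGF (0.42 and 0.98), and in all 4 runs at 24 h lower (-1.34 to -0.09). With the title runs as a block NEAT1 passed the test at both times, rising by 0.73 ± 0.17 at 6 h (adjusted p = 0.00089) and changing by -0.87 ± 0.12 at 24 h (adjusted p = 6.7e-07). MALAT1 had SDs of 0.54 and 0.43 and was called with neither fit (-0.29 ± 0.28 and 0.40 ± 0.19 with the block).

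Lists of lncRNAs by known role, counted over all their tested genes, gave the following under AII + EGF, beside 6.45% rising and 5.53% falling of all tested genes at 6 h and 1.7% and 1.2% at 24 h. Of 14 nuclear and chromatin genes none was called at 6 h and DLEU2 fell at 24 h. Of 15 microRNA hosts, MIR4435-2HG rose and MIR34AHG and MIR99AHG fell at 6 h, and MIR34AHG and DLEU2 fell at 24 h, with list medians of 0.01 and -0.38. MIR4453HG, a host by name that is not on this list, also fell at 6 h (-0.62). It lost its call without control replicate 6 or AII + EGF replicate 5 (-0.57 in each) and was named after its value was seen. MIR22HG (1.26 ± 0.33, adjusted p = 0.0025) and MIR210HG (1.48 ± 0.41, adjusted p = 0.0048) were higher at 6 h but, at means of 2.33 and 1.57 CPM, under the 5 CPM that a call needs. MIR99AHG, the host of miR-99a, let-7c and miR-125b-2, changed by -0.62 ± 0.13 (adjusted p = 0.00021) and fell under the fold minimum without control replicate 6 or AII + EGF replicate 2 (-0.57 and -0.58). MIR17HG, host of the miR-17 to miR-92a cluster and a target of MYC, was at -0.26 ± 0.27 and -0.74 ± 0.22 (adjusted p = 0.5 and 0.017).

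Of 7 p53 targets, MIR34AHG fell at 6 h and MIR34AHG and PINCR (-0.68) at 24 h, with list medians of -0.70 and -0.69 (all tested genes: -0.03 and -0.02). Under 5 CPM, DINOL was at -1.44 ± 0.40 and -1.09 ± 0.29 (adjusted p = 0.0047 and 0.0061) and TP53TG1 at -0.92 ± 0.21 and -0.09 ± 0.16 (adjusted p = 0.00068 and 0.75). LINC-PINT lay the other way at 6 h (0.70 ± 0.28, adjusted p = 0.049) and at -0.10 ± 0.21 at 24 h. NEAT1, on this list too with its values given above, was also higher at 6 h and was lower at 24 h. It was not called without the title runs in the fit. PURPL, which represses p53, was at -0.70 ± 0.35 and -0.69 ± 0.28 and was not called. Of 10 genes known to answer to growth factors, serum or hypoxia, CYTOR and MIR4435-2HG rose at 6 h and none was called at 24 h, with list medians of 1.13 and -0.22. LUCAT1, on the same list, had the largest change of those left uncalled for level, 3.16 ± 0.28 at 6 h (adjusted p = 1.9e-11, from 0.499 to 4.57 CPM) and 1.33 ± 0.23 at 24 h (adjusted p = 5.8e-05). MIR22HG and MIR210HG, given above, are on this list too. Of 6 cytoplasmic lncRNAs, CYTOR rose and EPB41L4A-AS1 fell at 6 h. None of the 3 imprinted genes tested was called.

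Antisense and divergent members were set beside the gene they are named after. Of 59 members with a tested partner, 13 were called under AII + EGF at 6 h: the partner moved the same way in 1 case, the other way in 1, and was not called in 11. Called partners were thus 2 of 13, where 9.66% of protein-coding genes at 10 CPM or more rose and 8.49% fell, so the share is near the background. DHRS4-AS1 (-0.63 ± 0.16) fell with DHRS4 (-0.78), a dehydrogenase gene. TTC28-AS1 fell while TTC28 rose by 0.75. DICER1 was at 0.66 (adjusted p = 0.014), TMPO at 0.16 and EPB41L4A at -0.63 (adjusted p = 0.019), none of them called. At 24 h none of the partners of the 3 called members was called. DHRS4-AS1 lost its call without control replicate 5 (-0.58) or AII + EGF replicate 2 (-0.53), with the title runs as a block (-0.53) and without title run 1 (-0.45, adjusted p = 0.075).

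**Figure D5:**
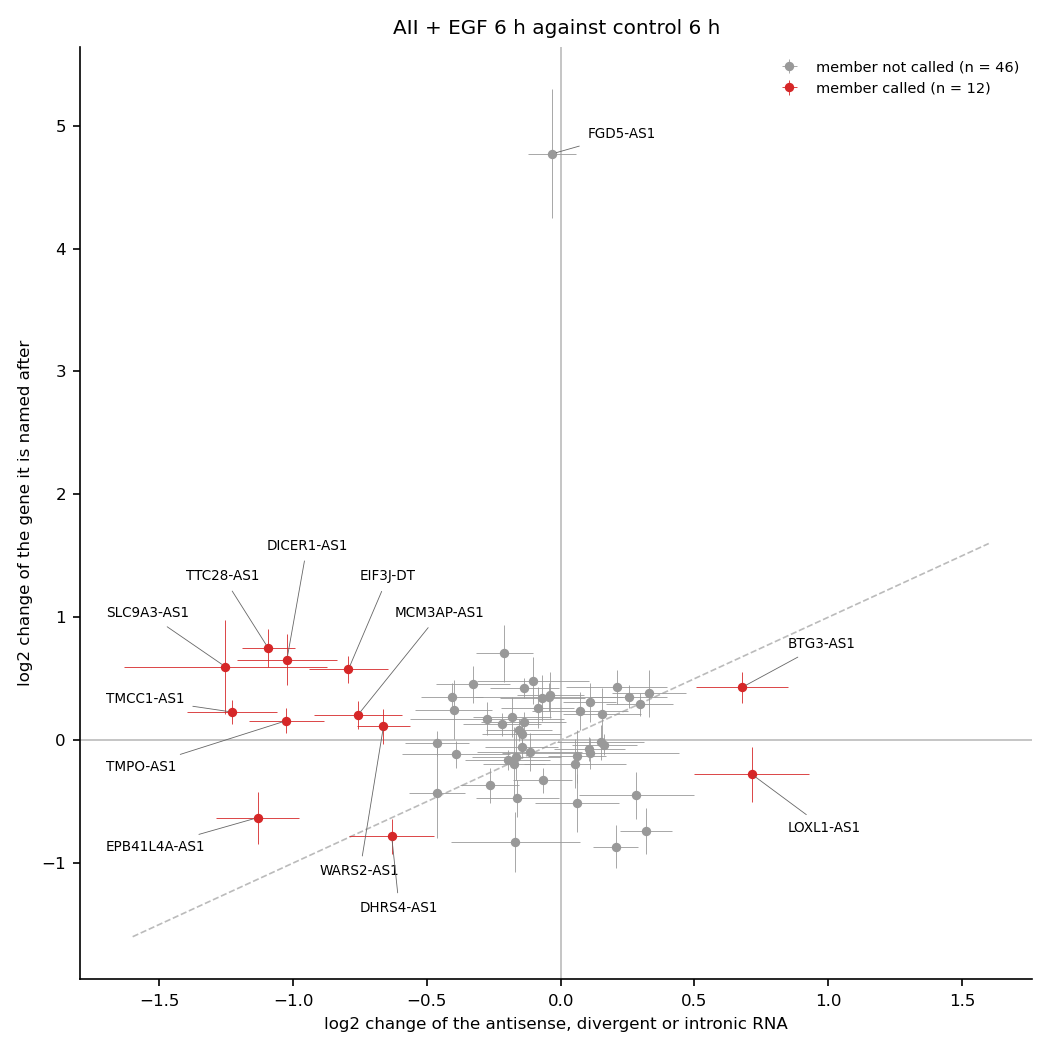
Log2 change under AII + EGF at 6 h of 58 members (x axis) and of the protein-coding gene each is named after (y axis), with SE bars and a dashed line of equal change. Red points are the 12 called members shown, and below and left of 0 with their partners lie EPB41L4A-AS1 and DHRS4-AS1. FGD5, at the top, had a log2 change of 4.77 at a mean under 5 CPM, beside -0.03 for FGD5-AS1.

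Promoter windows were found for 113 of the 194 members. The AP-1 motif (TGANTCA, both strands) was in 7 of them (6.19%), beside 7.76% of 27305 promoters of all genes. By motif, the 7 were MIR4435-2HG, CYTOR, BTG3-AS1, GABPB1-AS1, LINC00963, OLMALINC and EIF3J-DT. Of the 7 called rises with a window 3 held the motif, and of the 18 called falls 1 did. Of these 3, MIR4435-2HG and CYTOR share the site in their identical stretch. Among the same rises and falls, the EGR motif was in 1 and 4 and the GC box in 2 and 10. The CArG box, which serum response factor binds, was in 0 and 1, and the ETS motif CCGGAAGT in 0 and 1. The CRE motif TGACGTCA was in 1 and 0, and the E box CACGTG in 0 and 0. No difference was tested. The GC box GGGCGG was in 60.2% of member windows and 44.6% of all, and the EGR motif, whose matches can overlap it, in 15.04% and 9.28%.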

How the data were processed

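The authors sequenced poly(A) RNA in paired reads, mapped it to hg38 with HISAT2 2.1.0 (version from the submitters' processing notes) and counted fragments per Ensembl gene with featureCounts. The deposited values are these counts, not normalised. Strandedness and the handling of multiply mapped reads are not given in the sources used here, which bears on overlapping, antisense and duplicated genes. Groups were read from the source names, and replicates were numbered in order of deposition, without pairing. Members, lists and the rule for named genes were chosen with earlier results of these data known. Members were selected on mean CPM (count over column total) in the 38 libraries used.

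The tests used edgeR 4.0.16 (R 4.3.3). After filterByExpr, 19626 genes entered 1 quasi-likelihood model of the 38 libraries in 8 groups, with TMM factors, no covariates and Benjamini-Hochberg adjustment over all genes tested. A call needed an adjusted p under 0.01, a 1.5-fold change and a mean over 5 CPM in the higher group. Levels are TMM-scaled CPM, and errors of log2 changes are standard errors. The script was tested on simulated data. DESeq2 1.42.0, other sets of libraries, normalisations, filters and thresholds, title runs (blocks of consecutive title numbers) as a covariate and each library left out in turn were alternatives. Leaving out title run 1 was added after seeing the data. The text names the up to 5 largest rises and falls per comparison against control, the 8 members of highest level, members on the role lists, those next to the level limit, and the genes antisense or divergent members are named after. Genes outside this rule were named after their values were seen. The counts include 1 called member that is not reported here and is left out of the heat map and of the plot of partners. Library totals were 17.8 to 29.96 M counts, and a member at the limit of 10 CPM had fewer counts, and so more counting error, than one of high level. Positions, promoters and microRNAs came from RefSeq on GRCh38.p14 (141 members matched) and exon lengths from GENCODE 44 (178 members found).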

Additional observations from a re-analysis of the deposited data

Results flagged for a closer look

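Among 105 groups of libraries of 15 named members, 8 held a library far from the rest of its group by Dixon's test at the 95% level, which chance does in about 1 group in 20. SLC9A3-AS1 was at 42.2 CPM in control 6 h replicate 6, with the other controls at 18.2 to 20.3 CPM. In title run 8, replicate 6 of AII + EGF 24 h was high for AC022075.1 (14.4 CPM, others 9.51 to 10.5 CPM) and for LNCTAM34A (11.2 CPM, others 8.04 to 8.94 CPM), and replicate 6 of control 24 h was low for LNCTAM34A (15.1 CPM, others 18.1 to 19.7 CPM). The cause was not tested. MIR4435-2HG was at 37 CPM in control 24 h replicate 5 (others 29.8 to 32.1 CPM), and its paralog CYTOR at 38.1 CPM in AII 24 h replicate 3 (others 31.1 to 32.1 CPM). TTC28-AS1 was at 15.5 CPM in AII 6 h replicate 4 (others 17.7 to 18.4 CPM). LINC02591 was at 12.4 CPM in AII + EGF 24 h replicate 2 (others 9.95 to 10.7 CPM).

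The response to AII + EGF differed between 6 h and 24 h in 8 of these members, by the edgeR test of the difference itself. On the log2 scale, 24 h minus 6 h, it was -2.04 for GASAL1 (adjusted p = 2.1e-11), -1.73 for DLEU2 (adjusted p = 3.4e-05), -1.45 for MIR4435-2HG (adjusted p = 3.6e-11), -0.95 for LINC02591 (adjusted p = 0.00037) and -0.79 for CYTOR (adjusted p = 4.8e-05). It was 1.01 for TTC28-AS1 (adjusted p = 1.0e-07), 0.88 for AC022075.1 (adjusted p = 0.00042) and 0.69 for LNCTAM34A (adjusted p = 0.00092). GASAL1 changed direction, from 1.19 to -0.85. The times come from different title runs. Each response was taken against the control of its own time, but these groups were not matched by title run at 6 h. Title run 1 held AII + EGF libraries without a used control, and title run 7 a control without a used AII + EGF library.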

How the results depend on the processing

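The 69 log2 changes of members called against control or between AII + EGF and EGF, named here or not, were recomputed 1507 times. Of these values, 1312 kept direction and call, 195 kept direction without the call, and 0 reversed. In all, 27 changes kept their call in every alternative. Counts of called members (rises and falls together) moved by over 1.5 times as follows, and the cause was not tested beyond what each setting does. Without only the near-identical pairs (40 libraries), AII + EGF 6 h gave 21, EGF 6 h 1, AII + EGF against EGF 6 h 1 and the difference between times 25. Without only the libraries of doubtful label (46), EGF 6 h gave 7 and control 24 h against 6 h 8. All 48 gave 6, 1 and 8 for EGF 6 h, AII + EGF against EGF 6 h and control. Merging the near-identical EGF 6 h pair gave 14 for AII + EGF against EGF 6 h, and leaving out title run 1, chosen after seeing the data, 5. Without title runs 7 and 8, EGF 6 h gave 6 and EGF 24 h and AII + EGF against EGF 24 h 2 each. A member limit of 20 CPM, which keeps fewer genes, gave 0 for AII 6 h and EGF 6 h, 18 for AII + EGF 6 h, 6 at 24 h, 3 for AII + EGF against EGF 6 h, 11 for control and 15 for the difference. A limit of 5 CPM gave 9, 84, 3, 45, 16, 62 and 72 for EGF 6 h, AII + EGF 6 h, EGF 24 h, AII + EGF 24 h, AII + EGF against EGF 6 h, control and the difference. Without a fold minimum, AII + EGF 24 h gave 41, and EGF 24 h and AII + EGF against EGF 24 h 1 each. With only the groups compared, AII + EGF 24 h gave 9. With library totals in place of TMM factors, the members' median at AII + EGF 6 h was -0.29, where that of all genes was -0.14, and over all genes EGF 6 h went from 318 rises and 63 falls to 219 and 107.

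The titles carry no replicate numbers shared between groups, so title runs served as the block. With them, the calls were 7 for EGF 6 h, 45 for AII + EGF 6 h, 4 for EGF 24 h, 24 for AII + EGF 24 h, 13 for AII + EGF against EGF 6 h and 5 against EGF 24 h. Control 24 h against 6 h could not be fitted with that block. Leaving out each library in turn gave 1 to 2 calls for AII 6 h, 2 to 4 for EGF 6 h, 32 to 39 for AII + EGF 6 h, 0 to 0 for AII 24 h, 0 to 1 for EGF 24 h, 12 to 25 for AII + EGF 24 h, 4 to 7 and 0 to 2 for AII + EGF against EGF at 6 h and 24 h, 20 to 34 for control and 36 to 44 for the difference. Depth limits most the members near the limit of 10 CPM, and EGF 6 h rests on 3 libraries.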
